A study of Mus musculus with 4 samples.

Results

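Imprinted genes are expressed from 1 parental copy. The 10 genes described here were taken from the deposited matrices by symbol, and all 10 of 10 were found among the 32285 genes listed: Dlk1, Meg3, Rian and Mirg of the Dlk1-Dio3 domain, Peg3, Peg10, Magel2, Ndn and Snrpn, and Cdkn1c. They were followed across 4 libraries of single cells from the mouse embryonic cerebellum at stage E14.5, sorted for tdTomato, the red fluorescent reporter. Every library came from embryos carrying Atoh1-Cre, which drives the recombinase in the glutamatergic lineages of the rhombic lip, and the Cre-dependent tdTomato allele R26LSL-tdT, each on 1 chromosome. The labels give no further allele for the 2 control libraries, and the 2 libraries of the conditional knockout (En1/2 CKO) were also homozygous for the floxed alleles En1lox and En2lox, which Cre deletes in the Atoh1 lineage and nowhere else by design. Animals were pooled within a library, and p-values therefore measure the spread between pools.

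In an imprinted domain, a control region methylated in 1 germline decides which parental copy is read. In the Dlk1-Dio3 domain the paternal copy gives Dlk1, a membrane protein related to Notch ligands, and the maternal copy gives the long noncoding RNAs Meg3, Rian and Mirg, whose introns and exons hold many small RNAs. Several of these genes are abundant in the developing brain, where they act in neuronal differentiation, growth and, for Cdkn1c, exit from the cell cycle. The counts are not split by parental copy, so nothing here bears on imprinting itself.

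The first domain lies on chromosome 12 (GRCm38, GENCODE M21). Dlk1 spans chr12:109452823-109463336 on the plus strand, and Meg3 starts 77665 bases beyond its end, at chr12:109541001-109571726. Rian (chr12:109603940-109661716) and Mirg (chr12:109729764-109749460) follow on the same strand after gaps of 32214 and 68048 bases. The promoter windows of the pair whose values lead the results, from 250 bases before to 50 after a RefSeq start (GRCm38.p6, plus strand; for Meg3 the first of 2 starts), are shown with CG dinucleotides, the sites of DNA methylation, in capitals:
Dlk1, chr12:109452573-109452872: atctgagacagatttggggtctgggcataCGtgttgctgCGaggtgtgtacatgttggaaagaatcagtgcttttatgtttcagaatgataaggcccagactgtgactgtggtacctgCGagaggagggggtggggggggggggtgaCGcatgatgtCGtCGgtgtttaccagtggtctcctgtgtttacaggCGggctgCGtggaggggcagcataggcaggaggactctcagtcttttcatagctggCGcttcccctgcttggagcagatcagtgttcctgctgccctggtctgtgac
Meg3, chr12:109540746-109541045: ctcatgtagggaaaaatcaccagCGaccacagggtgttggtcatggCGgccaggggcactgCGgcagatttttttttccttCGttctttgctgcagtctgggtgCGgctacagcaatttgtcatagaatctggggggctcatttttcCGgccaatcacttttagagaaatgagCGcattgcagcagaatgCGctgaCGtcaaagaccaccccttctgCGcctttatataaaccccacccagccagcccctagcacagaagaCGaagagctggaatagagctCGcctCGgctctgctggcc
The Dlk1 window holds 9 CG dinucleotides and the Meg3 window 13; the window of the other Meg3 start, chr12:109545148-109545447, holds 1. The letters TAATTA, a core of sites bound by homeodomain proteins such as Engrailed and the same on both strands, were in none of these windows, nor in those of the other members with a promoter entry; 5.29% of 32851 promoter windows of this length held them. RefSeq places 3 mature miRNAs within Meg3, 6 within Rian and 26 within Mirg. The only seed (bases 2 to 8, in capitals) shared by 2 of them belongs to a pair in Mirg, which shows what this transcript carries; the miRNAs themselves were not measured:
mmu-miR-453, chr12:109735669-109735692, plus strand: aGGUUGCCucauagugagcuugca
mmu-miR-496a-5p, chr12:109739132-109739152, plus strand: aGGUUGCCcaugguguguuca

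The other members lie on chromosomes 6 and 7. Peg3 (chr7:6703892-6730431, minus strand) encodes a zinc finger protein, and Peg10 (chr6:4747306-4760517, plus strand) a protein derived from a retrotransposon. Ndn (chr7:62346569-62350262) and Magel2 (chr7:62377010-62381640), both on the plus strand, encode MAGE family proteins of the Prader-Willi region. Snrpn (chr7:59982495-60140219, minus strand), a splicing protein gene, overlaps Snurf on the same strand, so reads of the pair may be split and its values are uncertain. Cdkn1c (chr7:143458339-143461050, minus strand) encodes an inhibitor of cyclin-dependent kinases.

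The values are counts of unique molecular identifiers (UMIs), each 1 captured RNA molecule, summed over cells of a class within a library and scaled to a common library total (CPM). After filters on genes, UMIs and mitochondrial share, 2911 and 3931 control cells and 2007 and 3697 CKO cells were kept, out of library totals of 14998150 to 33709450 UMIs. The median depth of a kept cell was 2734, 2122, 5352 and 5544 UMIs in control 1, control 2, CKO 1 and CKO 2, the order used throughout, and at most 6 cell barcodes were shared by kept cells of 2 libraries. Cells with more Meis2 than Pax6 UMIs (Meis2-high: 603, 2322, 573 and 372 cells) had summed markers of excitatory cerebellar nuclei neurons of 2711 to 3717 CPM, and cells with more Pax6 than Meis2 (Pax6-high: 1801, 961, 1208 and 2978 cells) had 649 to 1104. Markers of the granule lineage summed to 2919 to 3257 CPM in Pax6-high cells. The nuclei list holds Meis2 and Tbr1 and the granule list Pax6, so the rule that made the classes set part of these sums. Cells with an Olig2 UMI (112, 366, 138 and 143) and cells with a Tbr1 or Lmx1a UMI (144, 511, 264 and 148) overlap both: 29 of 112, 266 of 366, 65 of 138 and 25 of 143 Olig2 cells were Meis2-high. Markers of glia and oligodendrocyte precursors summed to 16.7 to 63.2 CPM in Meis2-high cells and to 15.4 to 118 CPM in Olig2 cells. Of the 5 markers of that list, 2 were under 1 CPM in every library in Meis2-high cells and 1 was in Olig2 cells. The oligodendrocyte gene Sox10, 1 of the 5, had at most 1 UMI in the Meis2-high cells of any library. Mesenchymal markers summed to 0.56 to 1.46 CPM in Meis2-high cells. Erythroid markers summed to 3099 CPM in the Meis2-high cells of control 2 and to 2.8 to 47.1 CPM in the other libraries. In Olig2 cells they summed to 7426 CPM in control 2 and to 0.44 to 17.3 CPM in the other libraries. In Tbr1 or Lmx1a cells these sums were 4472 and 1.5 to 23.6 CPM. Microglia markers summed to 100 CPM in the Olig2 cells of control 2 and to at most 0.43 CPM in those of the other libraries. En2 fell in the CKO in each of the 4 classes (log2 fold change −2.24, −2.51, −2.78 and −2.67 for Meis2-high, Pax6-high, Olig2 and Tbr1 or Lmx1a cells, edgeR adjusted p 0.0177, 0.0115, 0.0348 and 0.0249). En1 in Meis2-high cells overlapped between genotypes (0.12, edgeR adjusted p = 0.898), and whether these reads lie outside the deleted part is not given.

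Dlk1 fell in the Meis2-high cells of the CKO. Its 110 and 160 control UMIs came to 53.4 and 27.3 CPM, and its 20 and 7 CKO UMIs to 4.7 and 3.9 CPM. Both CKO values lay below both controls (means ± SD 40.4 ± 18.5 and 4.31 ± 0.55 CPM, n = 2 each). On the log2 scale the change was −3.13 ± 0.41 (SE, here and below of the edgeR quasi-likelihood fit, adjusted p = 0.0332). In sums of this kind, fewer cells of a type and less RNA per cell cannot be told apart. Dlk1 was the only 1 of the 10 members called in these cells, where 0.212% of 11804 genes were called, 0.0762% lower and 0.136% higher. The call ended when cells were thinned to 2000 UMIs (−2.02, edgeR adjusted p = 0.312). Thinning left out cells of fewer than 2000 UMIs and set the classes again from the thinned counts. The call also ended when cells of the Olig2 and Tbr1 or Lmx1a classes were left out (−2.45, edgeR adjusted p = 0.0833, with 0 of 11158 genes called, against 1275 at an unadjusted p under 0.05). Over the 13 alternatives its log2 fold change ran from −2.02 to −4.76, the last from intact cells, those with 4000 UMIs or more and a mitochondrial share up to 5% (edgeR adjusted p = 0.0170), and 11 called it. Markers of excitatory nuclei neurons overlapped between genotypes in these cells (2711, 3717, 3266 and 2953 CPM), while granule lineage markers were higher in both CKO libraries (1791, 1824, 2661 and 2887 CPM), and their part in the result was not tested.

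In Olig2 cells, Dlk1 was seen in the controls alone. It had 37 and 40 UMIs in the controls (33.7 and 32.4 CPM) and 0 in both CKO libraries, where 3 UMIs would be 1.28 and 1.31 CPM. Set against 3 UMIs per library, it was at least 24.7-fold lower in the CKO, and it was 1 of 10 members called (edgeR adjusted p = 0.0348) where 0.019% of 10524 genes were. Few cells carry this result: 8 of 112 and 23 of 366 control Olig2 cells held a Dlk1 UMI, and 1 cell gave 18 of the 37 UMIs of control 1. Most of those cells were Meis2-high: 30 and 38 of the UMIs lay in the 29 and 266 Olig2 cells of that kind, and 4 and 0 in the 66 and 42 that were Pax6-high. The 65 and 25 Meis2-high Olig2 cells of the CKO libraries held 0, which allows shares of cells with a UMI of up to 4.62% and 12.0%. The control shares were 17.2% and 7.89%, so the bound of CKO 2 lies above the share of control 2. Of the 30 UMIs of control 1 in such cells, 18 came from 1 cell. Restricted to Meis2-high Olig2 cells, a choice made after seeing the data, Dlk1 was called again (edgeR adjusted p = 8.68e-05). With the replicate number as a block it was not (edgeR adjusted p = 0.369), nor without a filter on low counts (edgeR adjusted p = 0.0697).

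Dlk1 was low in the remaining classes. In Pax6-high cells it had 28, 15, 6 and 10 UMIs, which is 2.3, 4.5, 0.4 and 0.4 CPM. Both CKO values were again lower, but the change was not called (log2 fold change −3.07 ± 0.57, edgeR adjusted p = 0.137). In Tbr1 or Lmx1a cells it had 4, 34, 3 and 2 UMIs (4.3, 22.0, 1.0 and 1.5 CPM) and was left out by the filter on low counts. The CKO effect on Dlk1 did not pass the test of a difference between Meis2-high and Pax6-high cells (0.24 ± 0.68 on the log2 scale, edgeR adjusted p = 1.00). That test recovered 57% of 200 genes simulated with a 4-fold difference and the same spread for every gene.

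**Figure D1:**
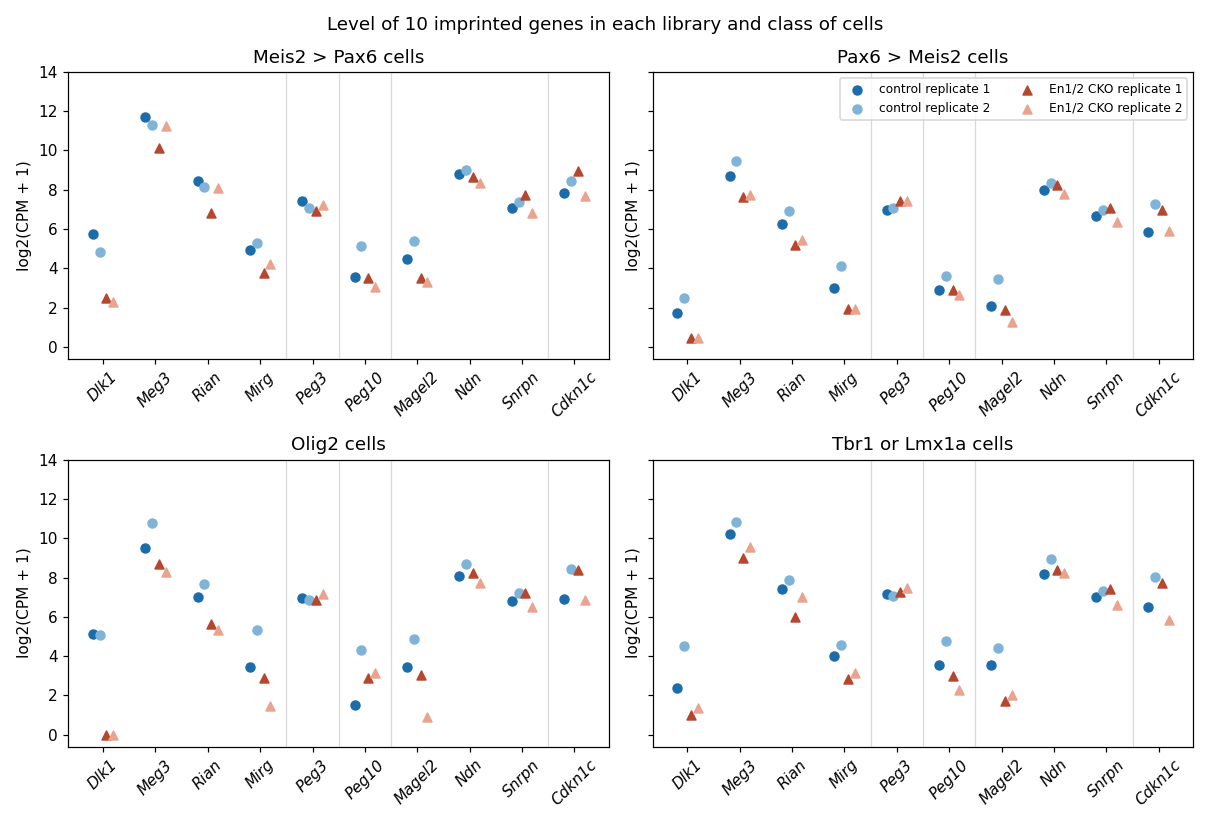
Level of each of the 10 genes (x axis) as log2(CPM + 1) (y axis) in 4 classes of cells, with 1 point per library; circles are controls and triangles En1/2 CKO. Dlk1 separates the genotypes in Meis2-high cells (53.4 and 27.3 against 4.7 and 3.9 CPM) and is at 0 in the Olig2 cells of both CKO libraries.

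Dlk1 was found in few cells. A Dlk1 UMI was found in 85, 142, 19 and 17 kept cells of the 4 libraries. The 20 cells richest in Dlk1 gave 59.4% and 38.4% of its UMIs in the controls, and 62.9% and 75.8% of the control UMIs lay in Meis2-high cells. After thinning to 2000 UMIs per cell, 6.90% of 406 and 3.57% of 1262 control Meis2-high cells held Dlk1 (95% Wilson intervals 4.81 to 9.79 and 2.68 to 4.74, for counting error only). The CKO shares were 1.24% of 402 cells and 0.85% of 235 (0.53 to 2.88 and 0.23 to 3.05). Both were below both controls, and the exact two-sided permutation test of 2 against 2 libraries gave 0.333, the smallest p this design allows. The unthinned shares, over all kept Meis2-high cells, were 6.80%, 4.82%, 1.57% and 1.88%. No Dlk1 UMI was present in 19 haemoglobin-rich cells with 135072 UMIs in all, where 3 UMIs would be 22.2 CPM.

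**Figure D2:**
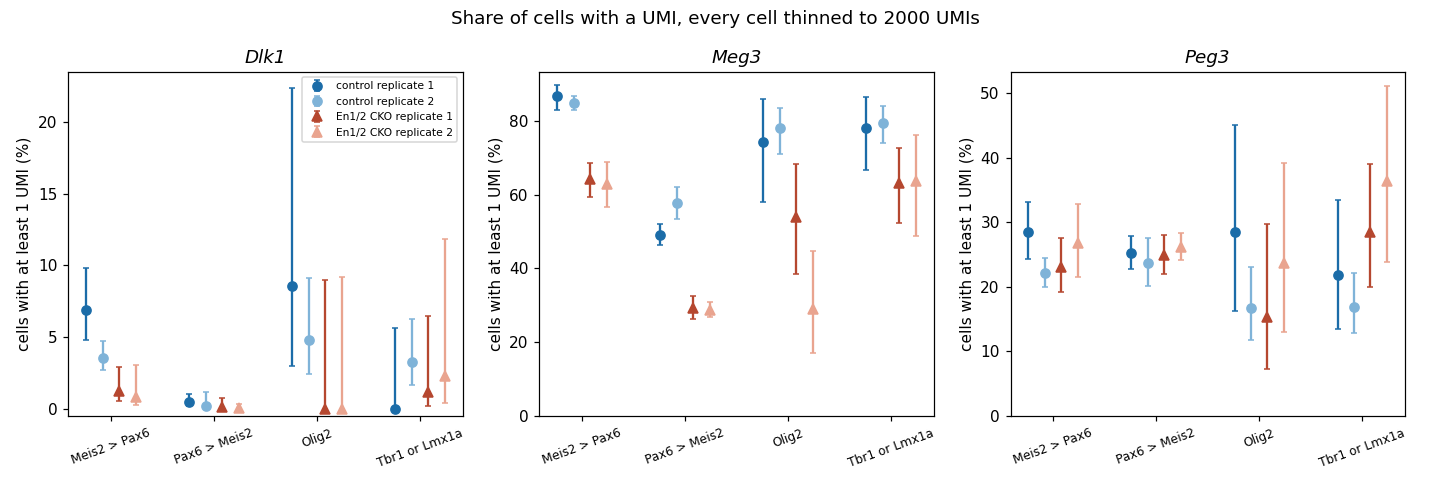
Share of cells with at least 1 UMI (y axis, percent) of Dlk1, Meg3 and Peg3 in 4 classes (x axis). Cells of at least 2000 UMIs were thinned to 2000 UMIs and classed again. Points are libraries and bars 95% Wilson intervals. Dlk1 and Meg3 shares in Meis2-high cells are lower in both CKO libraries (Meg3 64.2% and 63.0% against 86.7% and 84.9%), while Peg3 shares of the genotypes overlap there.

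The maternally expressed RNAs of the same domain had lower values in the CKO, but none passed the test. In Pax6-high cells Meg3 was at 415, 714, 195 and 211 CPM (log2 fold change −1.48 ± 0.31, edgeR adjusted p = 0.170). Rian was at 76.8 and 119 against 35.4 and 41.8 CPM (−1.33 ± 0.25, edgeR adjusted p = 0.137), and Mirg at 7.1 and 16.4 against 2.8 and 2.8 CPM (−1.98 ± 0.41, edgeR adjusted p = 0.170). For each of the 3, both CKO libraries lay below both controls. In Pax6-high cells 6 of the 10 members showed that order, as did 23.5% of 13931 genes, and 0 members were called, where 0.0574% of the genes were (0.0359% lower and 0.0215% higher). With DESeq2, 4 members were called there; at an unadjusted edgeR p under 0.05 there were 1368 genes. Leaving out control 1 made Meg3 a call (−1.77, edgeR adjusted p = 0.0466), and leaving out control 2 brought it to −1.02 (edgeR adjusted p = 0.522). Rian became a call without control 1 (−1.58, edgeR adjusted p = 0.0459) and without CKO 2 (−1.45, edgeR adjusted p = 0.0219).

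In Meis2-high cells the values depended on 1 CKO library. Meg3 stood at 3316, 2503, 1121 and 2412 CPM, and CKO 2 lay next to the lower control. Rian followed the same order, with 345, 286, 110 and 273 CPM. Their log2 fold changes were −0.72 ± 0.35 and −0.73 ± 0.36 (edgeR adjusted p 0.373 and 0.378). Without CKO 1 they were −0.27 and −0.21 (edgeR adjusted p 0.761 and 0.857), and without CKO 2 they were −1.36 and −1.49 (edgeR adjusted p 0.0122 and 0.00753). Mirg, at 29.2, 37.8, 12.5 and 17.4 CPM, gave −1.23 ± 0.28 (edgeR adjusted p = 0.116). In all, 7 of 10 members lay lower in both CKO libraries here, against 22.6% of 11804 genes. The nuclear RNA Malat1 was also lower in both CKO libraries. It was at 67511, 88014, 29479 and 58515 CPM in Meis2-high cells and at 30270, 57267, 14356 and 27118 CPM in Pax6-high cells. In Meis2-high cells its controls stood in the opposite order to those of Meg3, and its CKO values in the same order. In Pax6-high cells the libraries stood in the same order for both RNAs. The part of Malat1 in these results was not tested. Median UMIs per Pax6-high cell differed too, at 3238, 2339, 13722.5 and 9818.5.

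The share of cells in which Meg3 was found differed with thinning. Thinned to 2000 UMIs, Meg3 was found in 49.1%, 57.8%, 29.3% and 28.8% of Pax6-high cells. Unthinned, the shares were 63.4%, 66.1%, 60.4% and 55.7%, closer together. The unthinned shares include cells of fewer than 2000 UMIs, and the classes were set again after thinning, so the cells compared are not the same. Thinned shares of Meg3 were lower in both CKO libraries in each of the 4 classes, each with an exact permutation p of 0.333. They went down to 53.8% of 39 and 28.9% of 38 Olig2 cells, against 74.3% of 35 and 78.0% of 168 in the controls. Peg3 behaved otherwise: its thinned shares in Pax6-high cells were 25.2%, 23.6%, 24.9% and 26.2%, and its unthinned shares 39.3%, 28.7%, 60.8% and 54.7%.

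Within Olig2 cells, Meg3 was at 726, 1770, 407 and 309 CPM (log2 fold change −1.80 ± 0.49, edgeR adjusted p = 0.473). Rian was at 126, 204, 48.7 and 38.9 CPM (−1.91 ± 0.33, edgeR adjusted p = 0.276). Of the 10 members, 5 lay lower in both CKO libraries, an order shown by 20.2% of genes. The make-up of this class differed between libraries, since most Olig2 cells of control 2 and few of CKO 2 were Meis2-high. Malat1 was also lower in both CKO libraries, at 33406, 72571, 17797 and 29589 CPM. Its controls stood in the same order as those of Meg3 and Rian, and its CKO values in the opposite order. The median depth of an Olig2 cell was higher in both CKO libraries, at 4233.5, 2605.5, 13268 and 14646 UMIs. The part of Malat1 and depth in the Olig2 results, that of Dlk1 included, was not tested. Among Meis2-high Olig2 cells alone, Meg3, Rian and Magel2 were called beside Dlk1 (−1.39, −1.97 and −2.33, edgeR adjusted p 0.0052, 0.00025 and 0.0458), 4 of 10 members where 356 of 7815 genes were. Among Pax6-high Olig2 cells, 0 members and 16 of 9566 genes were called. In Tbr1 or Lmx1a cells, of which 49 of 144, 306 of 511, 95 of 264 and 28 of 148 were Meis2-high, Meg3 was at 1184, 1842, 513 and 750 CPM (−1.26 ± 0.41, edgeR adjusted p = 0.485). Its difference was −0.08 in thinned cells and −0.48 in the Meis2-high cells of this class, and −1.57 without control 1, where it was called (edgeR adjusted p = 0.0298). That of Rian was −1.12, and 0.14 in thinned cells. Malat1 in Tbr1 or Lmx1a cells was at 38331, 74799, 18422 and 34960 CPM, the same order of libraries as for Meg3, and its part was not tested. In this class 0 of the 9 members tested were called by edgeR or DESeq2 (5 had an unadjusted edgeR p under 0.05), with 0.00981% of 10196 genes; 5 of the 9 lay lower in both CKO libraries, as did 20.8% of genes, and 1 of the 9, Peg3, lay higher in both (21.9% of genes).

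**Figure D3:**
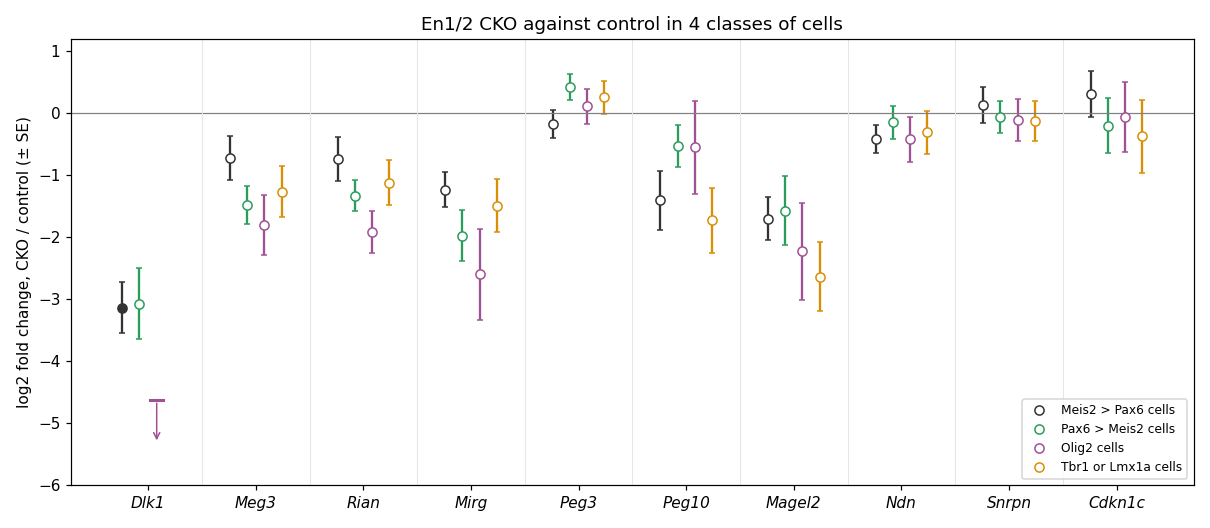
Log2 fold change of En1/2 CKO against control (y axis, ± SE of the edgeR fit) for each gene (x axis) in 4 classes; filled points are called, and the bar with an arrow is the bound for Dlk1 in Olig2 cells. Dlk1 in Meis2-high cells is the filled point (−3.13), while Ndn, Snrpn and Cdkn1c lie between −0.42 and 0.31.

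Magel2, the MAGE family member mutated in Schaaf-Yang syndrome, was the member outside the Dlk1-Dio3 domain with the lowest adjusted p in Meis2-high cells. It was at 21.4, 40.4, 10.3 and 9.0 CPM, with both CKO libraries below both controls (log2 fold change −1.70 ± 0.35, edgeR adjusted p = 0.0956). Its values were also lower in both CKO libraries in Pax6-high cells (3.3 and 10.0 against 2.7 and 1.4 CPM) and in Tbr1 or Lmx1a cells (10.7 and 20.7 against 2.3 and 3.1 CPM), without a call (−1.57 and −2.63, edgeR adjusted p 0.440 and 0.341). Its neighbour Ndn, which encodes necdin, an antagonist of cell growth, was at 451, 511, 400 and 320 CPM in Meis2-high cells (−0.42 ± 0.23, edgeR adjusted p = 0.437). Ndn overlapped between genotypes in the other classes.

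Snrpn and Cdkn1c overlapped between genotypes in every class. Cdkn1c was at 226, 344, 501 and 204 CPM in Meis2-high cells (log2 fold change 0.31 ± 0.37, edgeR adjusted p = 0.760). Snrpn was at 133, 164, 211 and 112 CPM (0.13 ± 0.29, edgeR adjusted p = 0.876). For both genes control 2 and CKO 1 stood above control 1 and CKO 2, and this order held in all 4 classes; in Pax6-high cells Cdkn1c was at 56.3, 153, 123 and 57.8 CPM and Snrpn at 102, 123, 133 and 82.2 CPM. The pairs share no genotype and no replicate number.

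Peg10, which the placenta needs, was at 10.7, 34.8, 10.3 and 7.3 CPM in Meis2-high cells (−1.40 ± 0.48, edgeR adjusted p = 0.228), with control 2 apart from the other 3 libraries. Without control 2 the change was −0.23 (edgeR adjusted p = 0.970), and without control 1 it was −1.91 and called (edgeR adjusted p = 0.000264). Peg3, at 170, 135, 122 and 150 CPM there, overlapped between genotypes (−0.17 ± 0.22, edgeR adjusted p = 0.781). In Pax6-high cells Peg3 was at 124, 134, 173 and 173 CPM. It was the only member there higher in both CKO libraries, an order that 22.9% of genes showed, and it was not called (0.43 ± 0.21, edgeR adjusted p = 0.513). The difference of the CKO effect on Peg3 between the 2 classes was −0.69 ± 0.21 (edgeR adjusted p = 0.418). None of the 10 members was called in that test of the difference by edgeR or DESeq2 (2 had an unadjusted edgeR p under 0.05), where 0.207% of 12542 genes were (0.167% higher and 0.0399% lower).

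Over all kept cells without regard to class, 0 members and 0.0% of 14710 genes were called by edgeR, with 1648 genes at an unadjusted p under 0.05 and 151 genes called by DESeq2; 6 of the 10 members lay lower in both CKO libraries, as did 24.4% of genes, and Peg3 lay higher in both (25.4% of genes). The members' median log2 fold changes were −0.73, −0.93, −1.17 and −1.12 in Meis2-high, Pax6-high, Olig2 and Tbr1 or Lmx1a cells (the last over the 9 tested), beside medians of all genes of −0.01, −0.01, 0.00 and 0.01. Scaled to total UMIs alone, the median of all Pax6-high genes moved to −0.14.

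Most members were higher in the Meis2-high than in the Pax6-high cells of the same libraries. In sums of cells that belonged to 1 class only, with the library as a block, 9 of 10 members were higher in Meis2-high than in Pax6-high cells, where 24.8% of 11493 genes were called higher and 51.2% in either direction. Each of the 9 was higher in 4 of 4 libraries. Dlk1 differed by 3.37 ± 0.49 on the log2 scale (edgeR adjusted p = 1.82e-05), with a mean of 19.6 ± 18.1 CPM against 2.2 ± 2.5 (SD, n = 4). Meg3 differed by 2.92 ± 0.25 (edgeR adjusted p = 5.77e-08), from 2425 ± 858 CPM in Meis2-high to 373 ± 240 CPM in Pax6-high cells. Rian, Mirg, Magel2 and Cdkn1c differed by 2.10, 1.89, 2.34 and 1.74, and Peg10, Ndn and Snrpn by 1.15, 0.56 and 0.43. Peg3 alone was not called (−0.13 ± 0.12, edgeR adjusted p = 0.360), with 141 ± 21.2 CPM in Meis2-high and 156 ± 28.0 CPM in Pax6-high cells. Malat1 was also higher in Meis2-high cells, at 66815, 87965, 30060 and 59504 CPM against 31378, 57990, 14492 and 27569 CPM. Meis2-high cells were shallower, with median UMIs of 2571, 2073, 2879 and 2198 against 3161, 2247.5, 13335 and 9517. The part of Malat1 and depth in the class differences was not tested.

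For the 9 members other than Peg3, the means of the other classes lay between these. Over the 4 libraries Meg3 averaged 2425, 1090, 817 and 373 CPM in Meis2-high, Tbr1 or Lmx1a, Olig2 and Pax6-high cells, and Magel2 21.1, 9.0, 12.1 and 4.3 CPM. Against Meis2-high cells, 8 members were lower in Olig2 cells (16.5% of genes were called lower) and 6 in Tbr1 or Lmx1a cells (9.97% of genes, and 22.1% in either direction). Meg3 differed by −1.85 ± 0.25 and −1.32 ± 0.24 (edgeR adjusted p 4.35e-05 and 0.000853). Cdkn1c differed by −1.19 ± 0.17 in Tbr1 or Lmx1a cells (edgeR adjusted p = 9.57e-05), and Dlk1 by −1.72 ± 0.55 (edgeR adjusted p = 0.0321). The call of Dlk1 held in 4 of 9 alternatives: it was lost with DESeq2 (−2.04, adjusted p = 0.0656), in thinned cells (−0.39, edgeR adjusted p = 0.85), and without control 1, CKO 1 or CKO 2 (−1.22, −1.56 and −1.71, edgeR adjusted p 0.231, 0.101 and 0.0555). Dlk1 in Olig2 cells differed from Meis2-high cells by −0.61 ± 0.47 over the 4 libraries, without a call (edgeR adjusted p = 0.343). In the controls Dlk1 was at 36.1 and 26.5 CPM in Olig2 cells, against 43.4 and 24.0 CPM in Meis2-high cells. In both CKO libraries it was at 0 in Olig2 cells, against 6.8 and 4.4 CPM. With cells thinned to 2000 UMIs, Meg3 differed by −0.81 in Olig2 cells and, without a call, by −0.38 in Tbr1 or Lmx1a cells. After thinning, 1 member was called in each of these 2 comparisons, where 80 and 327 of 8051 genes were. Before thinning, 3912 and 2542 of 11493 genes were called, so the calls fell among all genes.

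**Figure D4:**
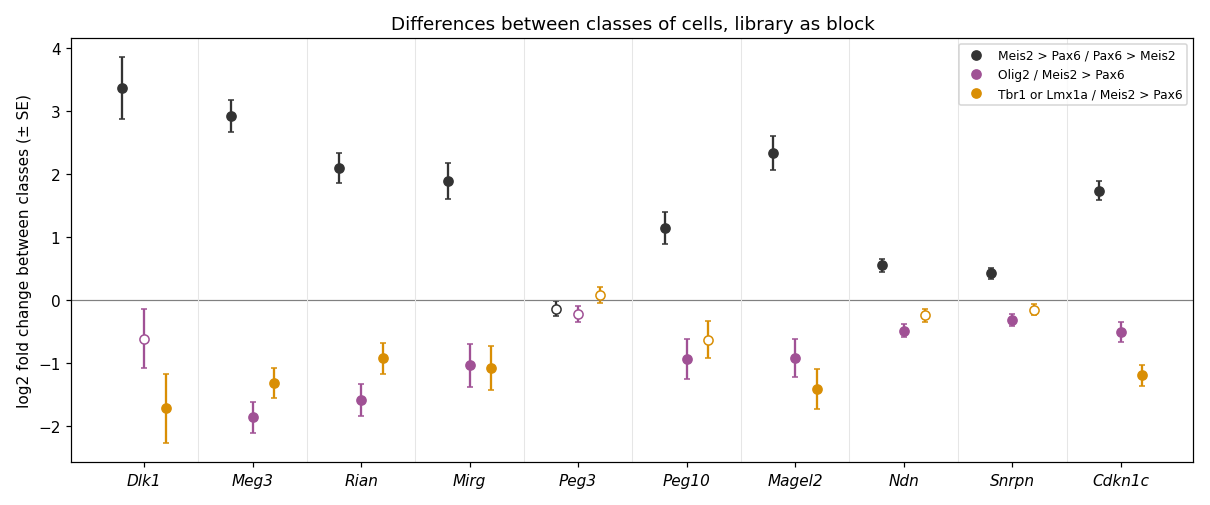
Log2 fold change between classes of cells (y axis, ± SE of the edgeR fit with the library as a block) for each gene (x axis); filled points are called. All genes but Peg3 are higher in Meis2-high than in Pax6-high cells, from 0.43 for Snrpn to 3.37 for Dlk1.

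Among Pax6-high cells, those in the cell cycle held less Meg3, Rian and Mirg RNA than the others. Cells of at least 2000 UMIs were called cycling when 2 or more UMIs, after thinning, came from the mitotic genes Birc5, Cdk1, Cenpf, Mki67, Top2a and Ube2c, which gave 351, 193, 416 and 757 cycling and 983, 383, 627 and 1502 other cells. Of the 9 members tested, 5 were lower in cycling cells (26.7% of 12637 genes were called lower) and 1 was higher (25.7%). Meg3 was at 184, 312, 122 and 134 CPM in cycling cells and at 504, 910, 230 and 224 CPM in the others, lower in 4 of 4 libraries (−1.14 ± 0.09, edgeR adjusted p = 1.75e-09). Rian, Mirg and Snrpn were also lower, with log2 differences of −0.91, −0.95 and −0.70, as was Ndn with −0.30. Malat1 was lower as well (log2 difference −0.18 ± 0.06, edgeR adjusted p = 0.00959), and cycling cells were deeper, with median UMIs of 5711, 3580, 19329.5 and 14494 against 4051, 3197, 13854 and 11283.5. Peg3 was higher in cycling cells of 4 of 4 libraries (0.45 ± 0.06, edgeR adjusted p = 2.88e-06), at 148, 176, 202 and 200 CPM against 112, 118, 140 and 156 CPM.

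Cdkn1c, whose product halts the cycle, was at 52.4, 139, 129 and 62.3 CPM in cycling cells and 53.9, 156, 109 and 54.7 CPM in the others, higher in 2 of 4 libraries (0.11 ± 0.07, edgeR adjusted p = 0.194). Other inhibitors of these kinases differed in both directions. Cdkn2c was higher in cycling cells by 4.00 on the log2 scale (edgeR adjusted p = 1.36e-14), Cdkn2d by 1.05 and Cdkn1b by 0.50, whereas Cdkn1a was lower, with −1.47. Cdkn2a and Cdkn2b were too low to test.

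**Figure D5:**
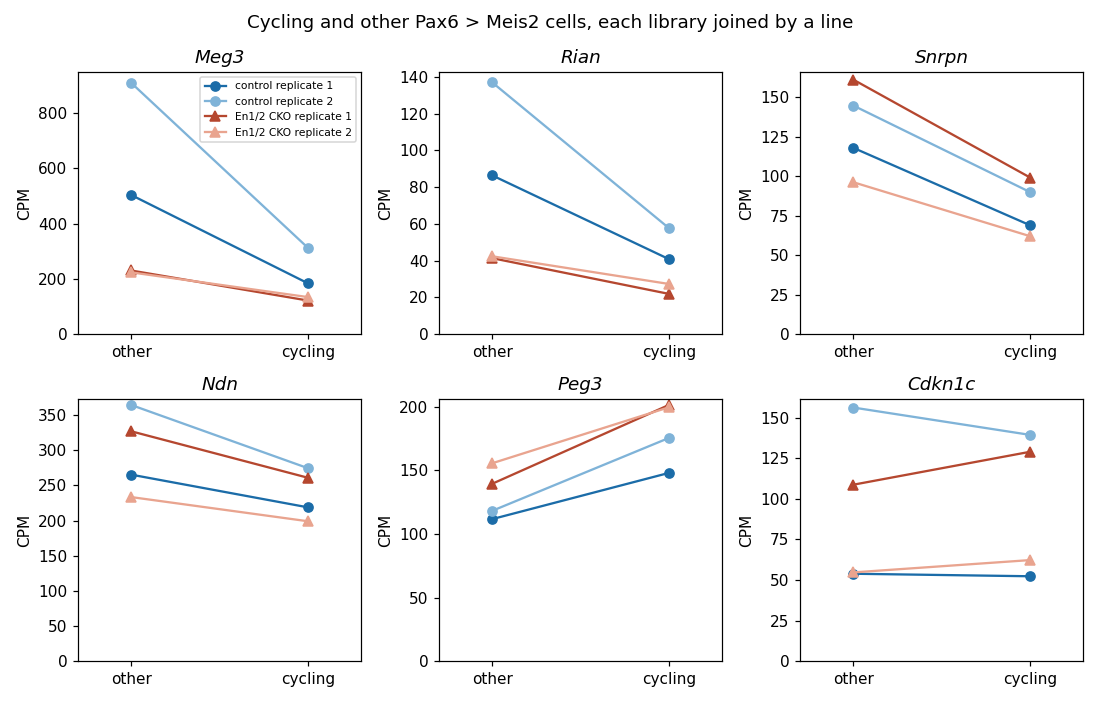
CPM (y axis, from 0) of 6 genes in other and cycling Pax6-high cells (x axis); each line joins the values of 1 library. Meg3, Rian, Snrpn and Ndn go down and Peg3 goes up in all 4 libraries, while Cdkn1c goes up in 2 and down in 2.

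Of 51 further imprinted genes listed by locus, 49 were in the files. None was called by edgeR in the CKO in any of the 4 classes (11, 3, 5 and 4 had an unadjusted p under 0.05), with 33, 37, 31 and 31 tested in Meis2-high, Pax6-high, Olig2 and Tbr1 or Lmx1a cells and medians of −0.20, −0.11, −0.16 and −0.20. An unadjusted edgeR p under 0.05 was found for 1732 of 11804, 1368 of 13931, 803 of 10524 and 912 of 10196 genes in these classes. Usp29, a neighbour of Peg3 named after its values were seen, was at 199, 188, 50.1 and 93.1 CPM in Meis2-high cells (−1.46 ± 0.28, edgeR adjusted p = 0.085). Between Meis2-high and Pax6-high cells, 17 of 33 tested were called higher and 4 lower, as were 24.8% and 26.4% of all genes. The 4 with the largest change were Asb4 (1.90), Nnat (1.19) and Snhg14 (1.10), all higher in Meis2-high cells, and Peg12 (−1.23), which was lower. Nnat, which encodes a small membrane protein of developing neurons, was at 2696 to 5619 CPM in Meis2-high and at 1081 to 2377 CPM in Pax6-high cells. In cycling cells, 11 of 35 tested were called higher and 16 lower, as were 25.7% and 26.7% of all genes. The largest changes were those of Slc38a4 (1.72), Kcnk9 (−1.60), Sfmbt2 (−1.11) and Pon2 (1.10).

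Across the 16 sums of 4 classes by 4 libraries, which share depth and composition, the gene of 7163 whose log2(CPM + 1) ran most like that of Meg3 was Shank1, a postsynaptic scaffold gene (Pearson r = 0.99), followed by Ankrd12 (0.98). Dlk1 ran most like Pik3r1, Hs6st1 and Hip1r (0.93, 0.92 and 0.92), and Ndn like the kinesin gene Kif5c, St8sia1 and Avl9 (0.97, 0.97 and 0.96). Cdkn1c ran like Chn1, Lhx9 and Tmem163 (0.95, 0.95 and 0.94); Lhx9 encodes a transcription factor of cerebellar nuclei neurons. Peg10 ran like Zfp57, a gene for a protein that maintains imprints, Azin1 and Fjx1 (0.91, 0.90 and 0.88). Peg3 ran like Cnksr2, Smc5 and Galnt18 (0.81, 0.77 and 0.75), the lowest of the 6 members compared in this way.

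Within thinned Meis2-high cells, Meg3 and Rian were found together in 175, 435, 86 and 78 cells of the 4 libraries, where their separate shares would give 159, 396, 60.3 and 51.6. Dlk1 and Magel2 met in 2 of 406 cells of control 1 and in 0 of 1262 cells of control 2, where 1.24 and 3.10 would be given. Rian and Mirg were found together in 18, 61, 5 and 7 cells, against 13.1, 36.9, 2.57 and 4.19. Of all pairs of members, these are given as examples chosen after their values were seen, with no test.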

How the data were processed

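Single-cell RNA was measured with the 10x Genomics 3′ kit in 4 libraries, 2 per genotype, of tdTomato-sorted cerebellar cells. The deposited values are UMI counts per gene and cell barcode, not normalized, made by the authors with Cell Ranger 5.0.0 on build mm10, per the submitters' processing notes.

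Kept cells had 500 genes and 1000 UMIs or more and a mitochondrial share of 10% or less; doublets were removed only in an alternative. Counts were summed per library and class and tested with edgeR 4.0.16 (quasi-likelihood, TMM, filterByExpr), two-sided, with Benjamini-Hochberg adjustment over all genes tested, and called at an adjusted p under 0.05; CPM are TMM-scaled. Genotype comparisons used the 4 libraries without covariates, and class and cycling comparisons had the library as a block. On simulated data, 90.5% of 200 genes changed 4-fold were recovered for Meis2-high cells (11843 genes tested) and 87.5% for Pax6-high cells (13947), but 57% for the difference of the CKO effect between them (12350). The simulation gave every gene the same spread, with no differences in cell make-up between libraries, so these shares hold for that setting only. In the real data larger changes went uncalled, as for Dlk1 in Pax6-high cells. Alternatives were DESeq2 1.42.0, scaling to total UMIs, no filter on low counts, each library left out, replicate blocks, intact cells, doublets removed, cells thinned to 2000 UMIs, and cells of 1 class only. The thinned alternative used only kept cells of at least 2000 UMIs (1971, 2145, 1585 and 2598), classed again from the thinned counts.

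All members were named, with the called genes of the further imprinted list (at most 4 of largest change per comparison), kinase inhibitors, Malat1, En1, En2 and the 3 genes most like a member, of which 1 is not reported here. Members and lists were chosen with earlier results of these data known. The pairing of equal replicate numbers was checked: deviations from the group means correlated at −0.31 to −0.10 over the comparisons, so the numbers were not taken to pair libraries. Of 32285 gene IDs, 32235 were found in GENCODE M21.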

Additional observations from a re-analysis of the deposited data

How the results depend on the processing

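The number of members called lower or higher in the CKO depended on the processing, and the cause was not tested. In Meis2-high cells it was 1, and it became 2 with DESeq2, 4 without a filter on low counts, 3 in intact cells, 0 in thinned cells, 0 in cells of 1 class only, and 1 (without control 2) to 5 (without CKO 2) with a library left out. In Pax6-high cells it was 0, and 4 with DESeq2, 5 without a filter, and 0 to 3 (without control 1) with a library left out. In Olig2 cells it was 1, and 3 with DESeq2, 0 without a filter, 4 in Meis2-high Olig2 cells, 0 in thinned cells and 0 in Pax6-high Olig2 cells (Dlk1 was not tested in these 2), and 1 to 5 (without control 1) with a library left out. In Tbr1 or Lmx1a cells it was 0, and 3 without a filter and 0 to 4 (without control 1) with a library left out. Over all kept cells it was 0, and 5 with DESeq2, 6 without a filter, and 0 to 6 (without control 1) with a library left out. Where 1 library was left out, the lone one is assumed to vary like the other group.

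The replicate block called 0 members in Olig2 cells and otherwise left the members' counts as they were. Equal numbers deviated in opposite directions, and a crossed replicate block, added after seeing the data, called 6, 5, 5, 1 and 6 members in Meis2-high, Pax6-high, Olig2, Tbr1 or Lmx1a and all kept cells.

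Between classes, the 8 members lower in Olig2 cells became 5 in intact cells, 1 in thinned cells and 4 to 7 with a library left out, and the 6 lower in Tbr1 or Lmx1a cells became 1 in thinned cells and 2 to 7. Among all genes, 3912 were called in the first comparison, 1989 in intact cells and 80 in thinned cells. In the second, 2542 were called, and 327 in thinned cells. Thinning turned Mirg to 0.25 from −1.03 and Snrpn to 0.083 from −0.31 in Olig2 against Meis2-high cells. The test of a different CKO effect gave 0 to 3 members with a library left out. Members called between Meis2-high and Pax6-high cells numbered 7 to 10 and between cycling and other cells 6 to 8 over the alternatives. The CKO-minus-control difference in the share of Meis2-high cells with Dlk1, −4.18 percentage points, ran from −5.85 (without control 2) to −2.52 (without control 1).

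Genes called also moved: 25 in Meis2-high cells, but 174 with DESeq2, 17 with total UMIs, 559 without a filter, 58 with the replicate block, 763 crossed, 42 intact, 15 without doublets, 5 thinned and 44 to 751 with a library left out; 8 in Pax6-high cells, but 91 with DESeq2, 348 without a filter, 0 with the block, 207 crossed, 1 intact and 2 to 123; 2 in Olig2 cells, but 21, 0, 0, 449 and 28 to 1308 (DESeq2, no filter, block, crossed, a library left out); 1 in Tbr1 or Lmx1a cells, but 17, 256, 0, 58 and 6 to 461 in that order. With 2 pooled libraries a genotype and 7 to 160 Dlk1 UMIs in Meis2-high sums, small changes were not detectable at this depth.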
